A study of Rattus norvegicus with 6 samples.

Results

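The β-cell makes insulin and amylin as longer precursors, and 7 genes that encode these hormones or cut the precursors to size are described here in replicating and quiescent rat β-cells. They are the insulin genes *Ins1* and *Ins2*, the amylin gene *Iapp*, the prohormone convertases *Pcsk1* and *Pcsk2*, the carboxypeptidase *Cpe* and *Pcsk1n*, whose product proSAAS inhibits the convertase encoded by *Pcsk1*. They were found by the gene name that the array files give each spot, and 7 of 7 were on the array. They were measured by 9 probes (27 spots), of 45598 probes (58717 spots) that are not controls. *Iapp* and *Pcsk1* have 2 probes each, called the brighter and the dimmer probe by their mean over all 6 arrays, and the brighter one stands for the gene in counts over genes.

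All cells came from the pancreatic islets of young adult male Wistar rats, isolated with collagenase and cultured overnight at basal glucose with EdU, a thymidine analogue that cells take up when they copy their DNA. Dispersed islet cells were gated as β-cells by size, granularity and Newport Green, a dye that binds the zinc stored with insulin, and were then parted by the EdU signal into replicating (EdU+) and quiescent (EdU-) β-cells. Each of 3 islet preparations, pooled from 4 rats, gave 1 replicating and 1 quiescent sample, so 6 arrays of 1 colour were compared as 3 pairs. Both groups had been exposed to EdU, fixed and permeabilised, the replicating fraction held far fewer cells than the quiescent one, and all RNA was amplified as a whole transcriptome before labelling. A replicating β-cell here is therefore one that copied DNA at some time during a night in culture. An array of the replicating or quiescent group is named below by its preparation, as in quiescent array 2.

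Insulin is made as preproinsulin, which enters the endoplasmic reticulum, loses its signal peptide, folds around disulfide bonds and is packed as proinsulin into secretory granules. There the convertases PC1/3 (*Pcsk1*) and PC2 (*Pcsk2*) cut at pairs of basic residues, and carboxypeptidase E (*Cpe*) trims the basic residues left at the ends, which gives insulin and C-peptide. Amylin is cut from its precursor by the same enzymes and is released together with insulin. Rats and mice carry a pair of insulin genes, of which *Ins1* arose as a copy of *Ins2*.

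The insulin genes are similar enough that the letters of their probes matter for what each spot can tell apart. Both probes lie in the stretch that encodes the insulin B chain. They are shown in the order *Ins1*, *Ins2*, and capitals mark the bases that differ between them where they overlap.
Ins1: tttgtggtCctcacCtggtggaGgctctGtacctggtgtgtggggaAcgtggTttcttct
Ins2: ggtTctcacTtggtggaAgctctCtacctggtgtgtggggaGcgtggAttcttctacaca
The 60-base probes overlap over 55 bases, of which 49 are identical and 6 differ, and the longest identical run is 17 bases. How far each probe also captures the other gene's cDNA was not tested. The *Ins1* and *Ins2* values below are therefore uncertain as separate values, more than those of the other genes.

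The array files place the probes on the rat build rn4, for which no annotation of exons was used here. The *Ins1* probe lies at chr1:258001385-258001444 on the plus strand and the *Ins2* probe at chr1:202936227-202936286 on the minus strand. The *Iapp* probes lie at chr4:179860808-179860867 (brighter) and chr4:179862706-179862765 (dimmer), 1898 bases apart, and the dimmer one is listed under a predicted transcript of the gene. The *Pcsk1* probes lie at chr2:1961221-1961280 (brighter) and chr2:1969912-1969971 (dimmer), 8691 bases apart. The *Pcsk2* probe lies at chr3:132255540-132255599. The *Pcsk1n* site, chrX:26614910-26615375, spans more bases than the probe has, and the *Cpe* probe is listed as unmapped.

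The hormone genes' promoters are shown because the values of the *Ins1*, *Ins2* and brighter *Iapp* probes moved together across the arrays, as given below, although the dimmer *Iapp* probe did not move with them. Many other genes moved with these probes as closely, and a link between promoter motifs and the values was not tested. Each sequence holds the 250 bases before the start of the gene in RefSeq's annotation of the rat build GRCr8, written in the direction of the gene. *Ins1* is chr1:261185869-261186118 (plus strand), *Ins2* chr1:207273806-207274055 (minus strand) and *Iapp* chr4:176967847-176968096 (plus strand). Capitals mark 4 motifs searched on both strands, which are GCCATCTG (the E1 box, bound by Neurod1 with its partner), TAAT (the core of the A boxes, bound by Pdx1), TGACG (the core of the cAMP response element) and TATAAA (the TATA box).
Ins1: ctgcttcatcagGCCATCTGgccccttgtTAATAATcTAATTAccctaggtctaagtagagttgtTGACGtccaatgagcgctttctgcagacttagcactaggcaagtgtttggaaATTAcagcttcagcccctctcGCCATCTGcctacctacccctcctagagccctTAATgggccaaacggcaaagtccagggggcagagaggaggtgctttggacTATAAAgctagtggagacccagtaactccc
Ins2: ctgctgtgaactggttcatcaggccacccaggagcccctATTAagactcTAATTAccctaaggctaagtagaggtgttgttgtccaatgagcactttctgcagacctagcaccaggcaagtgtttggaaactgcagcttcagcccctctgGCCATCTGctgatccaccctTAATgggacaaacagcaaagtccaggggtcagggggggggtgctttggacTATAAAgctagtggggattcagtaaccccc
Iapp: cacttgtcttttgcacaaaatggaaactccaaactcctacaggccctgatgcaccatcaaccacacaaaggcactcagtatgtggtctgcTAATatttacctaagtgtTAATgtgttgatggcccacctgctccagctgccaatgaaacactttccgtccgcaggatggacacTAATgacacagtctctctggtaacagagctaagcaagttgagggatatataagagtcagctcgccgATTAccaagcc
The letters GCCATCTG occurred 2 times before *Ins1*, 1 time before *Ins2* and 0 times before *Iapp*, against 0.998% of 33469 promoters of the same length that hold them. TAAT occurred 6, 4 and 4 times, counting each strand, so that TAATTA counts as 2 overlapping matches. It is found in 57% of all promoters, and 18.7% hold 3 or more. TATAAA, found in 12.9% of promoters, stood once before each insulin gene, and TGACG, found in 18.2%, stood once before *Ins1*. Only exact letters were counted, so that variants of a motif, such as the letters TATATAAG in the *Iapp* promoter, were left out. The insulin promoters were identical at 205 of 262 aligned positions (78.2%), whereas *Iapp* shared 46.8% with *Ins1* and 49.3% with *Ins2*. RefSeq promoters were found for 6 of the 7 genes, *Pcsk1* being the one without an entry. Among the promoters not shown, TGACG stood once before *Pcsk2* and once before *Cpe*, and TAAT occurred 2 times before *Pcsk1n*.

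The labels were checked on markers. *Top2a*, *Cdk1* and *Mki67*, which serve DNA topology, mitotic entry and proliferation, had log2 ratios of 3.76, 4.38 and 2.33 (replicating over quiescent). Of 5 replication markers 5 met the call rule defined below. In preparations 1, 2 and 3 the ratio was 3.75, 3.77 and 3.76 for *Top2a*, 4.97, 3.48 and 4.70 for *Cdk1*, and 2.27, 0.63 and 4.08 for *Mki67*. *Mki67* had a log2 value of 12.23 on quiescent array 2, near the 12.28 to 12.86 of the replicating arrays. Of 7 β-cell markers 6 were on the array and well above background on all arrays, but *Ins1*, *Ins2* and *Iapp* are among them, so that the independent ones are *Slc2a2*, *Slc30a8* and *Ucn3*. *Slc2a2* and *Ucn3* had ratios below 0 in all 3 preparations (-0.70 and -0.60 in the fit) and were not called. The quiescent arrays were unlike each other, and quiescent array 2 stood farthest from the rest. Its Pearson correlation over all probes was 0.654 with quiescent array 3 and 0.830 with quiescent array 1, and quiescent arrays 1 and 3 had 0.867. Replicating arrays had correlations of 0.967 to 0.986 with each other and of 0.943 to 0.969 with quiescent array 3. Quiescent array 2 also had 1583 outlier spots, against 252 to 299 on the others. The median standard deviation of a probe was 0.22 on the log2 scale among the replicating arrays and 0.65 among the quiescent ones.

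A probe was called by the rule the study used, which asks for an unadjusted p no larger than 0.05 together with an absolute log2 ratio no smaller than 1, in a limma fit blocked by islet preparation. Of 45598 probes 8.61% were called, 4.44% for a higher and 4.18% for a lower value in replicating β-cells, and 0% had an adjusted p under 0.05 with Benjamini-Hochberg adjustment over all probes, where the smallest adjusted p was 0.0977. At the unadjusted p alone 4379 probes passed, or 9.6%. The study, which counted genes, reports a larger number by the same call rule than the probes called here, with more higher than lower. Of the 9 probes of the 7 genes, 0 were called and 0 had an unadjusted p this low. No difference between replicating and quiescent β-cells was thus established on these arrays for these genes. The text gives their values, their spread and the intervals within which a difference could lie. Precision is limited throughout by the 3 arrays a group.

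*Ins1* was bright on every array and differed little between the groups. Its normalized log2 value was 16.76, 16.68 and 17.10 on replicating arrays 1, 2 and 3, and 16.67, 15.92 and 17.20 on quiescent arrays 1, 2 and 3. The groups overlapped, and the lowest value by far was that of quiescent array 2. The log2 ratio was 0.09, 0.76 and -0.10 in preparations 1, 2 and 3, and 0.25 in the fit (standard error 0.34, n = 3 pairs), or 1.19-fold with a 95% interval from 0.649-fold to 2.18-fold. The unadjusted p in limma was 0.498 and the adjusted p 0.733. Without quiescent array 2, and then without the block, the log2 ratio was -0.09, so that neither direction can be given for *Ins1*. For any of the 7 genes, a difference in the share of cells that express it and a difference in its mRNA per cell cannot be told apart in RNA of sorted populations.

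*Ins2*, the gene from which *Ins1* was copied, had log2 values of 16.53, 16.38 and 16.86 on the replicating arrays and 16.13, 15.51 and 16.87 on the quiescent arrays. The order of the arrays within each group was the order seen for *Ins1*, and the groups overlapped. The log2 ratios were 0.40, 0.87 and -0.01, with 0.42 in the fit (standard error 0.34), or 1.34-fold with a 95% interval from 0.734-fold to 2.44-fold. Its unadjusted p was 0.269 and its adjusted p 0.567 in limma. The interval leaves room for both a lower and a higher *Ins2* level in the replicating β-cells. By quantitative PCR of such sorted fractions, the study reports that insulin mRNA was significantly lower in replicating β-cells, a direction the array ratio did not show. The *Ins2* ratio was above the *Ins1* ratio in each of the 3 preparations, by 0.31, 0.11 and 0.09 on the log2 scale. The mean difference of 0.17 ± 0.12 (SD, n = 3) had p = 0.25 in the exact two-sided sign permutation test, which is the smallest p that 3 pairs allow.

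The insulin spots were read below the scanner's ceiling. The mean signal of *Ins1* lay between 8.59% and 19.9% of the saturation value, and that of *Ins2* between 5.30% and 16.4%. There were 0 saturated pixels in any spot of the 7 genes. The brightest spot of an array reached only 29.1% to 36.9% of the saturation value. Against that spot, *Ins1* lay at 26.4% to 62.4% and *Ins2* at 16.2% to 51.4%. Whether signals flatten toward the top of this range was not tested. Quantile normalization gave every array the same highest log2 value, 17.96, and the normalized *Ins1* values stayed under it. Before normalization the log2 ratios of the mean signals were -0.25, 0.22 and -0.14 for *Ins1* and -0.07, 0.59 and -0.16 for *Ins2*, while the median over all probes was -0.47, -1.46 and 0.16. In preparation 1 the ratio of both insulin genes was thus below 0 before normalization and above 0 after it.

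**Figure D1:**
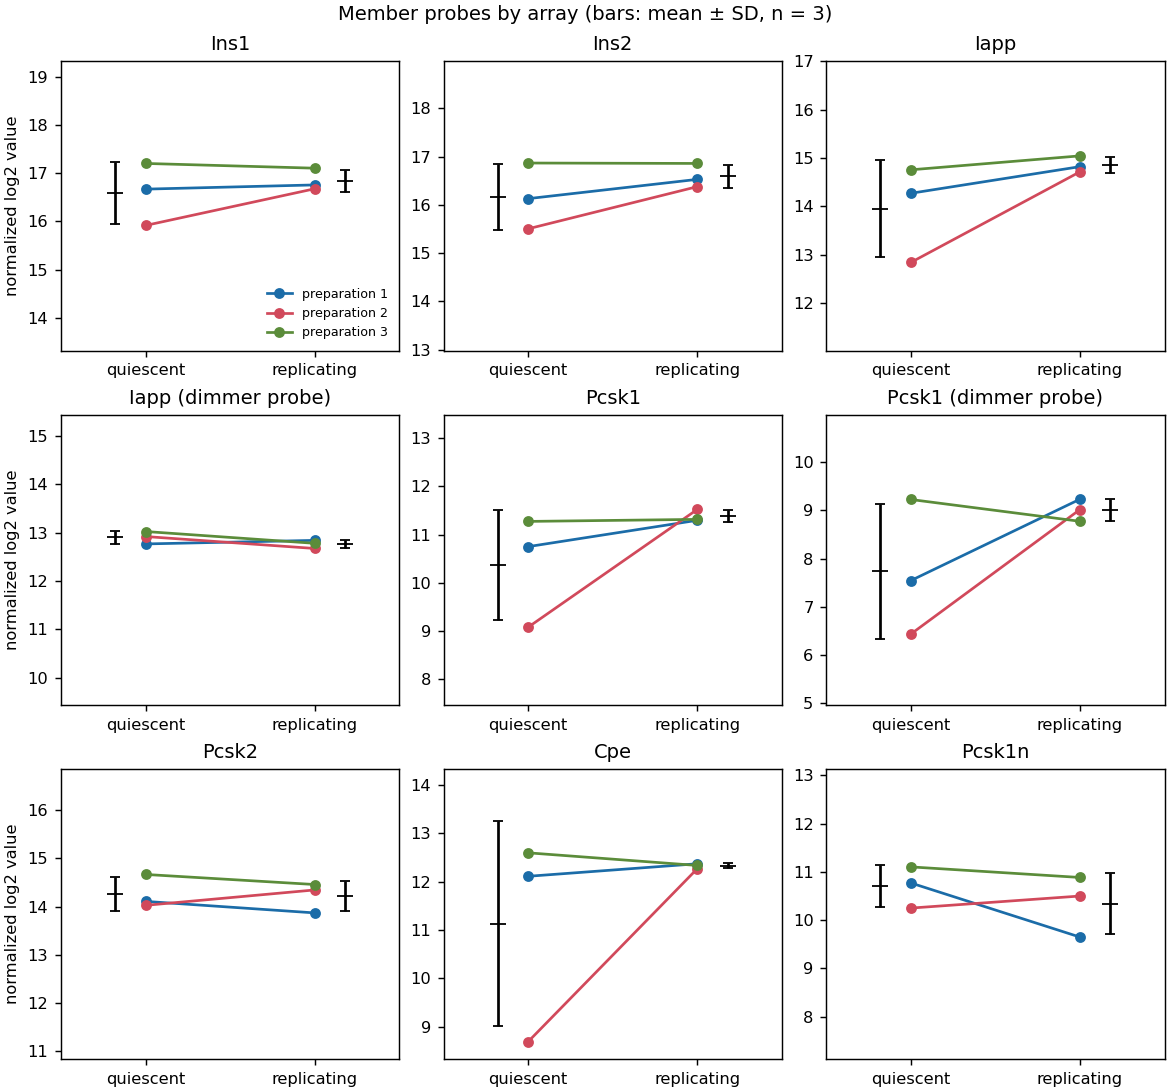
Normalized log2 values of the 9 probes on the 6 arrays, with quiescent arrays on the left and replicating arrays on the right of each panel. Points of the same colour joined by a line are 1 islet preparation, black bars are the mean ± SD of the 3 arrays of a group, and each vertical axis spans the same range of 6 log2 units. The red point of quiescent array 2 is the lowest of the 6 for Ins1, Ins2, the brighter Iapp probe, both Pcsk1 probes and Cpe, and not for the dimmer Iapp probe, Pcsk2 or Pcsk1n.

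*Iapp* encodes amylin, which is stored and released with insulin and slows gastric emptying. Its brighter probe had log2 values of 14.82, 14.71 and 15.04 on the replicating arrays and 14.27, 12.84 and 14.76 on the quiescent arrays. It was higher in the replicating sample of each pair, by log2 ratios of 0.55, 1.88 and 0.29, although the lowest replicating value was below the highest quiescent one. The ratio in the fit was 0.91 (standard error 0.43), or 1.87-fold with a 95% interval from 0.877-fold to 4.00-fold. The unadjusted p of 0.0872 was the lowest among the 9 probes, with an adjusted p of 0.475 in limma. Without quiescent array 2 and without the block the ratio was 0.35.

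The dimmer *Iapp* probe did not follow the brighter one. Its log2 values were 12.84, 12.67 and 12.78 on the replicating arrays and 12.77, 12.92 and 13.03 on the quiescent arrays. The ratios were 0.07, -0.25 and -0.24, with -0.14 in the fit (standard error 0.31, 95% interval -0.93 to 0.65) and an unadjusted p of 0.670 in limma. Quiescent array 2 was not low for this probe. The ratio of the brighter probe exceeded that of the dimmer probe by 0.48, 2.13 and 0.53 in the 3 preparations, and the exact two-sided sign permutation test gave p = 0.25, its smallest value with 3 pairs. Over the 6 arrays the 2 *Iapp* probes had a correlation of -0.28, so that the statement on *Iapp* depends on the probe read.

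*Pcsk1* encodes PC1/3, the convertase that opens proinsulin at the junction of the B chain and C-peptide. The brighter probe had log2 values of 11.29, 11.52 and 11.31 on the replicating arrays and 10.75, 9.08 and 11.27 on the quiescent arrays. It was the only one of the 9 probes whose groups did not overlap, against 15.8% of all probes, and the gap between the groups was small beside the spread of the quiescent arrays. The log2 ratios were 0.55, 2.44 and 0.04, with 1.01 in the fit (standard error 0.55), or 2.01-fold with a 95% interval from 0.768-fold to 5.28-fold. Its size reached the fold of the call rule, but in limma the p was 0.122 unadjusted and 0.483 adjusted. Without quiescent array 2 and without the block the ratio was 0.37.

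The dimmer *Pcsk1* probe had log2 values of 9.23, 9.02 and 8.77 on the replicating arrays and 7.55, 6.44 and 9.22 on the quiescent arrays. Quiescent arrays 1 and 2 were low for it and quiescent array 3 was level with the replicating arrays. The ratios were 1.69, 2.58 and -0.45, with 1.27 in the fit (standard error 0.64, 95% interval -0.35 to 2.89) and an unadjusted p of 0.101 in limma. The probes of *Pcsk1* gave the same order of preparations 1 to 3 in size of ratio, with 2 the highest and 3 the lowest, and had a correlation of 0.94 over the 6 arrays. In preparation 3 they had opposite signs. Of all 9 probes, the brighter ones of *Iapp* and *Pcsk1* had ratios above 0 in all 3 preparations, which held for 15.3% of all probes.

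*Pcsk2* encodes PC2, the convertase that cuts at the junction of C-peptide and the A chain and that also releases glucagon in α-cells. Its log2 values were 13.87, 14.34 and 14.46 on the replicating arrays and 14.11, 14.03 and 14.66 on the quiescent arrays. The groups overlapped over most of their range and no array stood apart. The ratios were -0.24, 0.32 and -0.21, with -0.04 in the fit (standard error 0.32), or 0.971-fold with a 95% interval from 0.550-fold to 1.71-fold. The unadjusted p in limma was 0.899 and the adjusted p 0.958. Of the 7 genes *Pcsk2* had the ratio nearest to 0, and its sign turned with the processing, from -0.22 without preparation 2 to 0.09 with the processed signal scaled to the 75th percentile.

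By its brighter probe, the *Pcsk1* ratio was above the *Pcsk2* ratio in each preparation, by 0.78, 2.12 and 0.25 on the log2 scale. For these differences the exact two-sided sign permutation test gave p = 0.25, again the smallest it can give with 3 pairs. The dimmer *Pcsk1* probe was above *Pcsk2* in preparations 1 and 2. In preparation 3 it was below, with -0.45 against -0.21. A difference in response between the convertases was thus not established.

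*Cpe* encodes carboxypeptidase E, which acts after both convertases and is found in most neuroendocrine cells. Its log2 values were 12.37, 12.27 and 12.34 on the replicating arrays and 12.11, 8.69 and 12.60 on the quiescent arrays. On 5 arrays the values lay between 12.11 and 12.60, and quiescent array 2 differed from the lowest of them by -3.42 on the log2 scale. The ratios were 0.26, 3.58 and -0.26, with 1.19 in the fit (standard error 0.81), or 2.29-fold with a 95% interval from 0.548-fold to 9.54-fold. In limma its unadjusted p was 0.198, with 0.518 after adjustment. This ratio was the largest among the 7 genes by the brighter probe, and it rested on 1 array: without preparation 2 it was -0.00119, and without quiescent array 2 and the block it was -0.03.

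The *Cpe* probe is printed 10 times on each array, which gives its error within an array. Over the 8 to 10 spots used per array, the standard deviation was between 0.036 and 0.077 on 5 arrays and 0.36 on quiescent array 2, where the spots ran from 8.15 to 9.15. The low value of *Cpe* on quiescent array 2 was thus shared by all its 10 spots there, each of which lay below every *Cpe* spot of the other arrays.

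**Figure D2:**
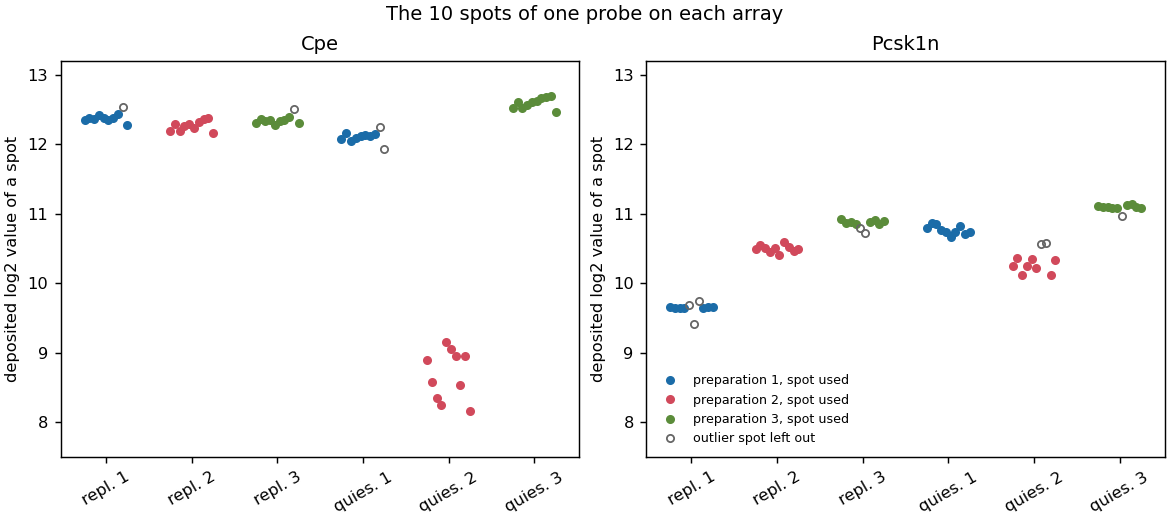
Deposited log2 value of each of the 10 spots of the Cpe probe (left) and the Pcsk1n probe (right) on the 6 arrays. Filled points were averaged and coloured by islet preparation, and open points are outlier spots that were left out. The Cpe spots of quiescent array 2 lie between 8.15 and 9.15 while those of the other arrays lie near 12, and the Pcsk1n spots of replicating array 1 lie below those of all other arrays.

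*Pcsk1n* encodes proSAAS, a granin-like protein whose peptides inhibit PC1/3. Its log2 values were 9.65, 10.50 and 10.88 on the replicating arrays and 10.77, 10.25 and 11.10 on the quiescent arrays. Here the lowest value was that of replicating array 1, and the groups overlapped. Its 7 to 10 spots used per array had standard deviations of 0.0076 to 0.10, so that the arrays differed by far more than the spots within them. The ratios were -1.12, 0.25 and -0.22, with -0.36 in the fit (standard error 0.39), or 0.777-fold with a 95% interval from 0.389-fold to 1.55-fold, an unadjusted p of 0.395 and an adjusted p of 0.660 in limma. Without preparation 1 the ratio was 0.02.

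**Figure D3:**
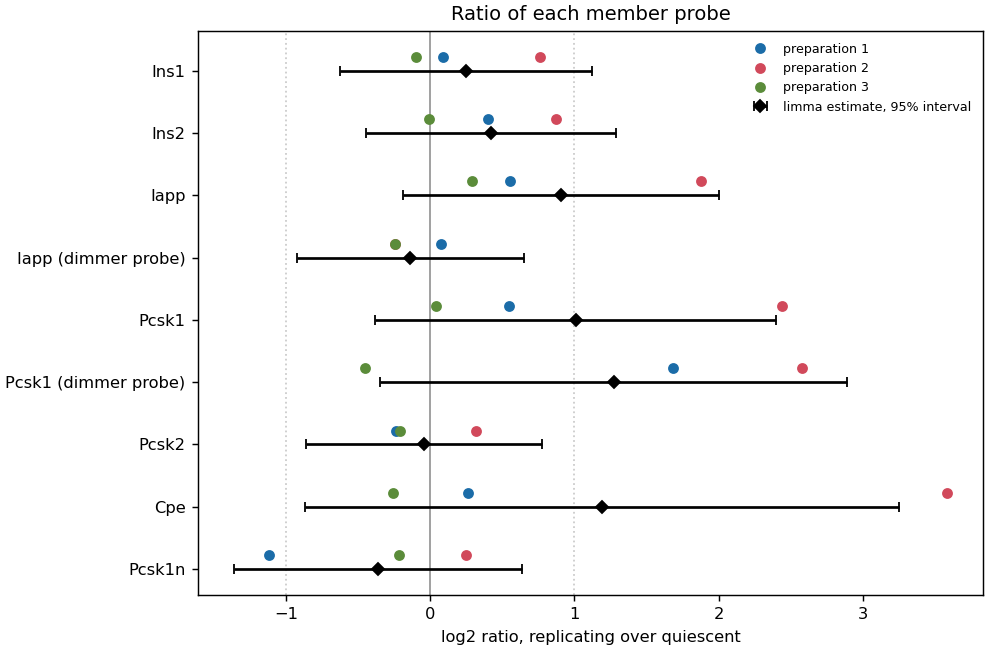
Log2 ratio of replicating over quiescent β-cells for each of the 9 probes. Coloured points are the 3 islet preparations, black diamonds the limma estimate with its 95% interval, and dotted lines mark ratios of -1 and 1. All 9 intervals include 0, and preparation 2 has the highest ratio for every probe but the dimmer Iapp probe, where preparations 2 and 3 coincide at -0.25 and -0.24.

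Taking 1 probe for each of the 7 genes, 5 had a log2 ratio above 0 and 2 a ratio below 0, with a median of 0.42. Over 17960 genes with a RefSeq symbol the median was -0.00105 and 49.9% had a ratio above 0. The median of the 7 genes was 0.26, 0.87 and -0.10 in preparations 1, 2 and 3. Quiescent array 2 held the lowest of the 6 values for 6 of the 9 probes, against 34.5% of all probes, and by the brighter probe for 5 of the 7 genes, against 38.4% of the genes with a symbol. The standard deviation among the quiescent arrays exceeded that among the replicating arrays for 8 of the 9 probes, the exception being *Pcsk1n*, and its median over the probes was 0.68 against 0.23.

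The genes could be set side by side by the way their values ran over the 6 arrays, which is a description of 6 points that share the pairing and the low quiescent array 2. *Ins1* and *Ins2* had a Pearson correlation of 0.98, and *Ins2* and *Iapp* one of 0.94. *Iapp*, *Pcsk1* and *Cpe* ran closely together, with 0.98 for *Iapp* and *Pcsk1* and 0.97 for *Pcsk1* and *Cpe*. *Pcsk2* and *Pcsk1n* had a correlation of 0.87 with each other, but *Pcsk2* had 0.67 with *Ins1* and 0.43 with *Iapp*. These sets shade into each other, with 0.90 for *Ins1* and *Cpe* and 0.88 for *Ins2* and *Pcsk1*, and they hold for the brighter *Iapp* probe. The dimmer *Iapp* probe had correlations of -0.35 with *Pcsk1*, -0.26 with *Cpe*, 0.04 with *Ins1* and 0.03 with *Ins2*.

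Other genes ran as closely with the hormone genes. Among 14647 genes well above background on all arrays, those most like *Ins1* were *Wrnip1* (r = 0.995), *Arhgef2*, *Rpl23*, *Tor4a* and *Trpm2*. Those most like *Ins2* were *Nmt1* (r = 0.999), *Ensa*, *Rbfox3*, *Cdkn2aipnl* and *Sfxn5*. Those most like *Iapp* were *Smad2* (r = 0.999), *Rnf185*, *Slc25a30*, *Tmem17* and *Fam181b*. As many as 1783 genes had a correlation above 0.9 with *Ins1*, 2017 with *Ins2* and 2750 with *Iapp*, so a high correlation over these arrays singles out no gene.

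The other genes of the hormone's route through the cell were read from lists, whose genes were chosen with earlier results of these arrays known. Of 69 genes 68 were on the array, 47 with a ratio above 0 and 21 below, 6 called higher and 1 called lower, and 0 at the adjusted p. Over all features, 49.9% of the genes with a symbol had a ratio above 0, and 4.44% of the probes were called higher and 4.18% lower. Their median log2 ratio was 0.51, with 0.30, 0.96 and -0.17 in preparations 1, 2 and 3, and 41 had their lowest value on quiescent array 2. Without quiescent array 2 and without the block, 3 were called higher (*Prdx4*, *Vgf* and *Chga*) and 1 lower.

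Of 12 other genes of precursor cutting and end modification, 0 were called, and their median ratio was 0.20. *Scg5*, which encodes the chaperone 7B2 that PC2 needs to become active, had a ratio of 0.01 with an unadjusted p of 0.983, and ratios of 0.24, 0.36 and -0.58 in the preparations. It thus lay close to *Pcsk2*, whose ratio was -0.04. *Pam*, the enzyme that amidates the end of amylin, had a ratio of 0.89 with an unadjusted p of 0.176. Its ratios of 0.26, 2.43 and -0.02 ran like those of *Cpe*, with quiescent array 2 low.

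Of 31 genes of entry into the endoplasmic reticulum and disulfide folding, 4 were called higher (against 4.44% of all probes) and 0 lower, and their median ratio was 0.59 (0.30, 1.39 and -0.25 by preparation). *Prdx4*, a peroxiredoxin of the endoplasmic reticulum that passes oxidising power to disulfide isomerases, had the largest ratio, 2.70, with 3.02, 3.16 and 1.93 in the preparations. Its unadjusted p was 0.000813 and its adjusted p 0.238 in limma, and it was called under 15 of 15 alternatives. *Ssr2*, a subunit of the translocon-associated complex, had a ratio of 1.97 (limma, unadjusted p of 0.0150). The disulfide isomerases *P4hb* and *Pdia6* had 1.67 and 1.68, with unadjusted p of 0.0401 and 0.0447 in limma. For these 3 the ratio of preparation 2 was above 3, and without quiescent array 2 and the block the ratios were 0.99, 0.68 and 0.96, none of them called. Over all 15 alternatives *Ssr2* was called under 12, *P4hb* under 10 and *Pdia6* under 11.

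Of 10 genes of granule storage, 2 were called higher (against 4.44% of all probes) and 0 lower, with a median ratio of 0.83. *Chga*, which encodes the granule matrix protein chromogranin A, had a ratio of 1.00, which was 0.77, 0.84 and 1.41 by preparation (limma, unadjusted p of 0.0266). It was called under 8 of 15 alternatives and not, for example, without the block (p of 0.0672). *Vgf*, another granin family gene, had 2.11, with 1.43, 4.23 and 0.67 by preparation (limma, unadjusted p of 0.0346), and was called under 13 of 15. The zinc transporter *Slc30a8*, which loads the zinc that Newport Green binds, had -0.07 (unadjusted p of 0.839), and its dimmer probe had ratios of 0.55, 2.35 and 0.07.

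Of 13 transcription factors of the insulin genes on the array, 0 were called higher and 1 lower (against 4.18% of all probes), with a median ratio of -0.26. *Mafa*, which drives the insulin genes in mature β-cells, had log2 values of 12.22, 12.17 and 12.07 on the replicating arrays. Its values on the quiescent arrays were 13.47, 12.67 and 13.34, so the groups did not overlap, as for 16.9% of the genes with a symbol. Its ratio was -1.01, with -1.25, -0.50 and -1.27 by preparation (limma, unadjusted p of 0.0304 and adjusted p of 0.475), and it was called under 8 of 15 alternatives. Of its dimmer probes, one had -0.73, -1.84 and -0.26, and the other 0.15, -1.55 and -0.05. *Pdx1* had -0.76 (unadjusted p of 0.0682), below 0 in all 3 preparations, and *Neurod1* had 1.64 (unadjusted p of 0.101), with 1.37, 3.90 and -0.34. The peptidase genes *Ide*, which encodes the insulin-degrading enzyme, and *Nln*, which encodes neurolysin, were not called.

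**Figure D4:**
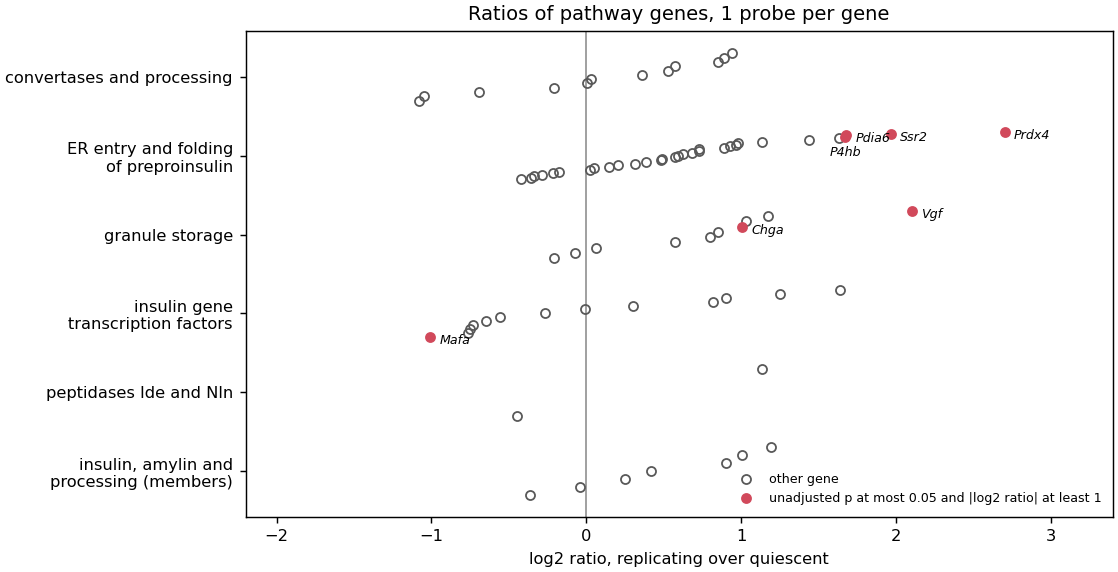
Log2 ratio of replicating over quiescent β-cells for the genes of 5 pathway lists and the 7 genes described here (lowest line), 1 probe per gene and ordered by ratio within a list. Filled points with names met the call rule. Prdx4 at 2.70 lies farthest to the right, Mafa at -1.01 is the only called gene below 0, and none of the 7 genes was called.

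*Pcsk2*, *Cpe* and *Pcsk1n* are also used by the other endocrine cells of the islet, so markers of these cells were set beside them. *Gcg*, the glucagon gene of α-cells, had log2 values of 14.23, 15.52 and 16.39 on the replicating arrays and 12.88, 12.25 and 13.84 on the quiescent arrays, a ratio of 2.39 (limma, unadjusted p of 0.00327). The groups did not overlap for *Gcg*, which held for 16.9% of the genes with a symbol. The counts of called markers stand against 4.44% of all probes called higher. Of 7 α-cell markers 2 were called higher, and the log2 of their summed level ran from 14.47 to 16.47 on the replicating and from 12.52 to 14.11 on the quiescent arrays. Of 4 δ-cell markers 2 were called higher (*Sst* 1.74 and *Rbp4* 1.49), with summed levels of 10.95 to 11.45 and 10.78 to 11.94, and of 2 PP-cell markers 1 (*Ppy* 1.21), with 12.14 to 13.16 and 11.25 to 11.89. Of 9 fibroblast markers 3 were called higher (*Col1a2* 2.93, *Col3a1* 3.04 and *Vim* 1.89), with summed levels of 13.64 to 15.18 and 12.14 to 12.56, and of 5 immune markers 2 (*Cd68* 1.32 and *Cd74* 1.48), with 11.26 to 11.59 and 10.42 to 10.78. Of 8 acinar markers 1 was called higher (*Prss1* 1.56), with summed levels of 12.95 to 16.36 and 11.95 to 15.39, of 6 duct markers 1 (*Spp1* 2.09), with 14.54 to 14.78 and 14.68 to 15.28, and of 5 endothelial markers 0, with 11.76 to 13.03 and 12.12 to 13.87. Ratios below 0 were found for 5 of the duct markers (with *Krt20* lowest, at -1.75), 2 of the endothelial and 2 of the acinar markers. They were also found for 1 δ-cell and 2 α-cell markers, and for 0 of the PP-cell, fibroblast and immune markers. Every listed marker on the array was well above background on at least 1 of the 6 arrays, with *Irx1* on 2 and *Pnlip* on 3. Of all probes, 80.8% to 96.4% were well above background on a given array. The part of these cells in the values of the 7 genes was not tested. Beside the higher *Gcg*, the ratios of *Pcsk2*, *Cpe* and *Pcsk1n* were -0.04, 1.19 and -0.36.

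**Figure D5:**
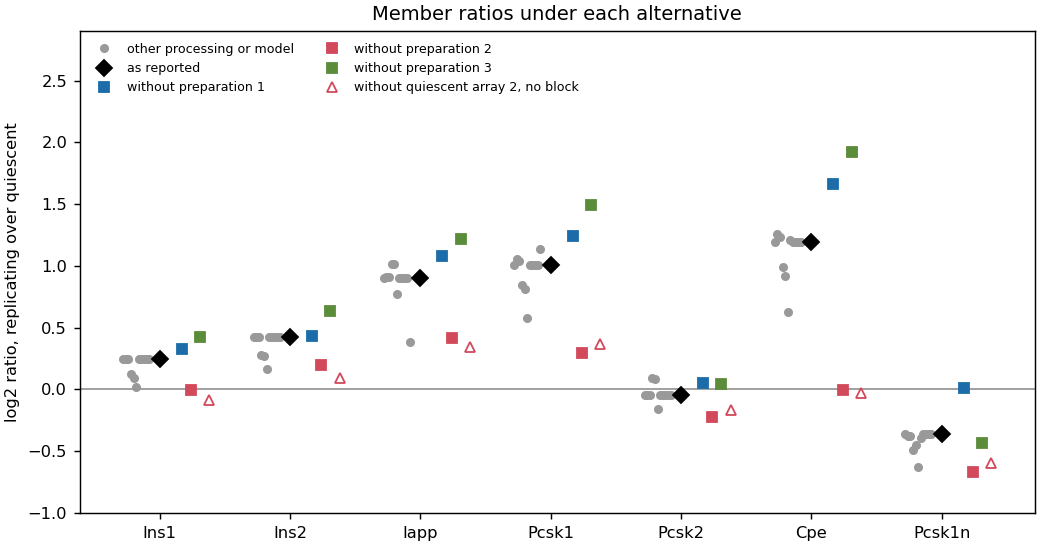
Log2 ratio of replicating over quiescent β-cells for the 7 genes as reported (black diamonds) and under 15 alternatives. Grey points are other normalizations, filters or models, squares leave out 1 islet preparation, and open triangles leave out quiescent array 2 and the pairing. Leaving out preparation 2 brings Cpe from 1.19 to about 0 and lowers Iapp to 0.42 and Pcsk1 to 0.29, whereas Pcsk2 stays between -0.22 and 0.09 throughout.

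The size of the ratios above 0 rested on preparation 2. Without that preparation the log2 ratio was 0.42 for *Iapp*, 0.29 for *Pcsk1*, 0.20 for *Ins2* and about 0 for *Ins1* and *Cpe*. Taking 1 value per gene, *Ins2*, *Iapp* and *Pcsk1* kept a ratio above 0 under all 15 alternatives. The ranges were 0.09 to 0.64, 0.35 to 1.21 and 0.29 to 1.49. That value was the brighter or only probe, or the median over probes in the alternative of that name. The dimmer *Iapp* probe had -0.14 as reported and -0.25 without preparation 1. With the processed signal scaled to the 75th percentile it had 0.07. Several of the 15, such as the fit without the block and the variance trend, leave a ratio unchanged and could not turn it. With a variance trend in the fit, the unadjusted p was 0.0162 for *Iapp* and 0.0272 for *Ins2*, both with a log2 ratio under 1, and none of the 7 genes was called by its brighter or only probe under any alternative. The dimmer *Pcsk1* probe was called without preparation 3, with a log2 ratio of 2.13 (unadjusted p of 0.00713, limma).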

How the data were processed

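RNA of replicating and quiescent rat β-cells was measured on 6 Agilent arrays of 1 colour (Cy3), all on 1 slide, after whole transcriptome amplification. The authors read the arrays with Feature Extraction 10.7.3.1, and the deposited intensity of each spot (mean signal, local background and processed signal) was not normalized between arrays. A second deposited table holds the authors' log2 value of every spot, made with normexp background correction and quantile normalization. Recomputing them here with an offset of 50 gave differences of at most 0.000245, so these log2 values were used. Quantile normalization gives every array the same distribution, which moves a gene wherever the bulk of the probes differs between arrays. Control spots and outlier spots were left out, the spots of a probe were averaged, and each of 45598 probes was tested in limma 3.58.1 under R 4.3.3 (files read with data.table, version 1.17.8) in the paired model of the study's methods, blocked by islet preparation. The Benjamini-Hochberg adjustment ran over all probes, and the fit was tested on simulated data. A probe of several for a gene was taken by its mean over all arrays.

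The pairing comes from the labels and methods, which give 1 sample of each group per preparation. After the group means were taken off, paired arrays had correlations of 0.0561, 0.242 and 0.258 over 44652 probes. The p-values and intervals rest on the spread between these 3 preparations only in part. The empirical Bayes step of limma draws the spread of each probe toward a value common to all probes. The genes, the lists and the rule for the genes named (the 7 genes, called pathway genes and a few listed regulators, first and called markers, and the 5 genes most like each hormone gene) were chosen with earlier results of these data known, and not every marker the rule names is printed. Gene names are those of the array files. Alternatives were other offsets, scalings, spot and probe filters, models and left-out samples.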

Additional observations from a re-analysis of the deposited data

How the results depend on the processing

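Of 105 comparisons of a ratio of the 7 genes with an alternative, 96 kept the direction and 9 turned it, all of ratios that were not called, and 0 became called. The 105 comparisons take 1 value per gene, and the dimmer *Pcsk1* probe became called without preparation 3, at 2.13. Many of them could not turn a ratio. The recomputed values, the filter for probes well above background, the fit without the block and the variance trend left every ratio as reported. The median over probes could change only *Iapp* and *Pcsk1*. The 96 therefore overstate how stable the directions were. *Pcsk2* turned from -0.04 to 0.0889 with the processed signal and 0.0862 with normexp, each scaled to the 75th percentile. These scalings moved the median of all probes from -0.07 to -0.71 and -0.39, and relative to it *Pcsk2* was at 0.80 and 0.47. The share of calls that were higher, 51.5%, was 17.2% and 21.4% there. Leaving out 1 preparation gave -0.22 to 0.0550 for *Pcsk2* (0.0550 without preparation 1 and 0.04 without 3), -0.00119 to 1.92 for *Cpe*, -0.00547 to 0.42 for *Ins1* and -0.67 to 0.0153 for *Pcsk1n*. Without quiescent array 2 and without the block, an alternative chosen after seeing the data, *Cpe* had -0.0286 and *Ins1* -0.0896; the cause was not tested.

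Pathway genes called higher, 6 as reported, were 2 with the processed signal and 3 without quiescent array 2, and 2 to 13 when 1 preparation was left out. Those called lower, 1 as reported, were 0 at offsets 0 and 16, with both 75th percentile scalings and with the median over probes, 2 with cyclic loess and 2 with a variance trend, and 0 to 3 when 1 preparation was left out. Probes with an adjusted p under 0.05, 0 as reported, were 719 with normexp scaled to the 75th percentile, 204 with cyclic loess, 61 with a variance trend and 151 without quiescent array 2, and 0 to 84 when 1 preparation was left out. Probes called higher, 2023 as reported, were 662 with the processed signal, and 518 to 5112 when 1 preparation was left out. Probes called lower, 1905 as reported, were 3193 and 5862 with the 75th percentile scalings, 267 without quiescent array 2, and 63 to 5633 when 1 preparation was left out.

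Without the replicate block the ratios of the 7 genes were equal to those reported (0.25, 0.42, 0.91, 1.01, -0.04, 1.19 and -0.36 in the order *Ins1*, *Ins2*, *Iapp*, *Pcsk1*, *Pcsk2*, *Cpe*, *Pcsk1n*) and none was called. The fit without the block had 99 probes at the adjusted p, 878 called lower, 68.2% of calls higher, and 3 pathway genes called higher.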
